A study of Mus musculus with 6 samples.

Results

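The genes described here are 33 genes of ciliated and secreting mucosal epithelium, measured in RNA from the mouse cochlea: 22 genes of motile cilia and 11 genes of mucosal secretion of the kind found in airway and middle ear lining. The rule lists them by name and uses no measured value, and all 33 were found among the 48709 mouse genes of the count table, 2 of them (Dnai1 and Dnai2) under the older symbols Dnaic1 and Dnaic2. RNA-seq was run on cochleae of 3 mice homozygous for the engineered allele Hgfdel10Neo (genotype Hgfdel10Neo/del10Neo, called knock-in here) and of 3 wild-type littermates (Hgf+/+). The study is titled as a model of the deafness DFNB39. The allele removes 10 bases of intron 5 of Hgf, the gene of hepatocyte growth factor, and its name also carries Neo, a selection cassette. The labels name no treatment and no Cre. The mice were 5 to 27 weeks old. Which mouse had which age or sex, or came from which litter, is not given in the sources used here. A total of 24005234 to 42312291 reads per library were counted on mouse genes.

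Hgf itself was lower in the knock-in libraries. It stood at 15.4, 16.2 and 15.2 CPM (counts scaled to a common library total) in wild-type libraries, against 9.24, 10.4 and 10.5 CPM in knock-ins, with a log2 fold change of -0.63 (SE 0.11, adjusted p = 0.246, edgeR). The groups did not overlap, but the adjusted p missed the threshold of 0.05. Reads of the Neo cassette numbered 5, 8 and 10 in wild-type libraries, 71 and 199 in the first 2 knock-ins, and 5 in the library labelled knock-in replicate 3. That library therefore matched its label by Hgf and not by Neo. Without it the log2 fold change of Hgf was -0.67 (SE 0.13, adjusted p = 0.535, edgeR), and the values of the motile cilia and secretory genes without it stand in a paragraph of their own. Xist, transcribed from the inactive X chromosome, had 25380 counts in wild-type replicate 2 and 17489 in the library labelled knock-in replicate 3, against 10 to 30 counts in the other 4. Markers of the labelled tissue were present: Coch, a matrix protein of the inner ear, averaged 2613 ± 209 CPM in wild-type and 2879 ± 255 CPM in knock-in libraries (SD, n = 3 each).

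A motile cilium beats by means of dynein motors, which are set in outer and inner arms along the microtubule doublets of the axoneme and slide the doublets past each other. Radial spokes and a central pair of microtubules pace the motors, and Foxj1 together with RFX-family factors switches on most of the genes that build them. In mucosa such as that of the airway, the middle ear and the Eustachian tube, ciliated cells stand beside secretory cells that release mucins, BPI-fold proteins and antibodies, and the beating cilia carry that layer away. In the adult mammalian cochlea the hair cells bear stereocilia, which are not motile cilia, and have lost their kinocilium.

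The sequence before and just after the gene start was examined because the motile cilia genes are known as targets of RFX factors, which bind the X-box. The RefSeq table (GRCm38.p6) held windows of 300 bases, 250 before and 50 after the start, for 26 of the 33 genes. The hexamer GTTGCC, 1 arm of the X-box, was searched on both strands, so that it also appears as GGCAAC. It occurred in 9 of the 19 motile cilia genes with a window (47.4%), in 16 of 38 other axoneme genes (42.1%), in 2 of 7 secretory genes (28.6%) and in 14.1% of all 27025 genes in the table. A strict paired form, GTTNCC and GGNAAC set 0 to 3 bases apart, was found in 0 of the 19. It occurred in 0.936% of all genes. Pairs whose arms have other letters were not counted. In the windows of Hydin and Cfap44 below, gttgct lies shortly before GGCAAC, and the strict form does not match it. The forkhead core TGTTTAC occurred in 1 of the 19, Cfap43, and in 4.05% of all genes. These matches describe letters in a window and not bound sites. The windows of Drc1, Hydin and Cfap44 are shown as examples in which GGCAAC, printed in capitals, lies within 20 bases before the start. Tekt1 has GTTGCC 15 bases before a listed start, Spef2 has it 8 bases after, and the secretory gene Agr2 has GGCAAC at the start. They cover chr5:30281143-30281442, chr8:110266727-110267026 and chr16:44394549-44394848 on GRCm38.p6, all on the plus strand.
Drc1: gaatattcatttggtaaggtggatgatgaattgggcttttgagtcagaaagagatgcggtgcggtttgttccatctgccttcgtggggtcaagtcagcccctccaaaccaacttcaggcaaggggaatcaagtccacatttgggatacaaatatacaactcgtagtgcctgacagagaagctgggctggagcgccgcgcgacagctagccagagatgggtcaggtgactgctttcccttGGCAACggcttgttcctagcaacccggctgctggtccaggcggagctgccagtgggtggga
Hydin: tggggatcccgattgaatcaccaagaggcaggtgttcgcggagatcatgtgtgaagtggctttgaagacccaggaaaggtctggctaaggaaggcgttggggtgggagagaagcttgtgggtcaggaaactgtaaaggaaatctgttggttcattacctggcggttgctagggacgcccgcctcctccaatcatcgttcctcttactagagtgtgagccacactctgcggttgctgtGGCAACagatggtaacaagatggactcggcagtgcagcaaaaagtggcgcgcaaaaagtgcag
Cfap44: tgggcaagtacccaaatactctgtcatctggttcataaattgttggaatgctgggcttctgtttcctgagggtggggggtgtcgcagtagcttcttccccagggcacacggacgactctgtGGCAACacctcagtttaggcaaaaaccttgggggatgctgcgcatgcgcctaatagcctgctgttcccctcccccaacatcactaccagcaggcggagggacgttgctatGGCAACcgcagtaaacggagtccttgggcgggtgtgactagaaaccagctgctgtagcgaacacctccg
The hexamer starts 11 bases before the start of Drc1, 13 bases before that of Hydin, and 129 and 19 bases before that of Cfap44.

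The windows of Bpifa1 and Bpifb1, which lie 41.6 kb apart, are shown because these 2 secreted relatives differed in how far their levels varied between libraries. They cover chr2:154142630-154142929 and chr2:154190568-154190867 on GRCm38.p6, both on the plus strand, with the TATA-box letters TATAAA in capitals.
Bpifa1: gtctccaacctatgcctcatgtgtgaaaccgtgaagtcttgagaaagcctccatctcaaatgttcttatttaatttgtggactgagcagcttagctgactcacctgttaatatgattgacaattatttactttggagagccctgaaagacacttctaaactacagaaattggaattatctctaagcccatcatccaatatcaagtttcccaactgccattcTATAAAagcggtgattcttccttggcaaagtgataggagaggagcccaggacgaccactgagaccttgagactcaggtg
Bpifb1: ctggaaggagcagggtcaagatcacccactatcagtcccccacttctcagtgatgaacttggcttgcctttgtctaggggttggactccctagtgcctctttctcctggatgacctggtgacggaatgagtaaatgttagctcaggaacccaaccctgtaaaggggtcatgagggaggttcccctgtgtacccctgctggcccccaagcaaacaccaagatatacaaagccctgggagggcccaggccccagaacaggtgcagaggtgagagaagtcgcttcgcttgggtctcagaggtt
TATAAA, searched on both strands, starts 29 bases before the start of Bpifa1 and occurs in neither listed window of Bpifb1. Only these exact letters were searched. The other listed window of Bpifb1, not shown, holds the similar letters tataag before its start. TATAAA was found in 2 of the 7 secretory genes with a window, Bpifa1 and Muc4, in 1 of 19 motile cilia genes, Dnah12, and in 15.7% of all genes. A link between these letters and the variation between libraries was not tested.

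No gene of either group differed between knock-in and wild-type cochleae by the edgeR quasi-likelihood test. Of the 33 genes, 30 had enough counts to be tested, 21 of motile cilia and 9 of secretion, and 0 of the 30 passed an adjusted p of 0.05, where 0.0338% of the 20733 genes tested did (0.00965% higher and 0.0241% lower in knock-ins). The lowest adjusted p was 0.966. At an unadjusted p under 0.05, 1 of the 30 was found, Muc5b, which was lower, against 4.5% of all genes (2.54% higher, 1.96% lower). DESeq2, which called 0.0929% of all the genes it tested, called 0 of the members, as did limma-voom. For Muc5b, however, DESeq2 gave a log2 fold change of -2.75 and no p-value. The knock-in and wild-type libraries overlapped for all 30, while 8.72% of all genes tested had groups that did not overlap (4.71% higher, 4.01% lower). Mcidas, Scgb1a1 and Muc5ac were not tested because they fell below the filter on low counts. The tissue was sampled in bulk, so that fewer cells of a type and less RNA per cell cannot be told apart.

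Among the regulators, Foxj1 was readily detected and the upstream switch Mcidas was nearly silent. In what follows, 3 values in a row are replicates 1, 2 and 3, wild type first, and the last knock-in value is that of the library labelled knock-in replicate 3. Foxj1, the forkhead factor of motile ciliogenesis (ENSMUSG00000034227, chr11:116330704-116335399, minus strand), stood at 10.3, 10.2 and 6.69 CPM in wild-type libraries, against 10.5, 11.9 and 6.42 CPM in knock-ins. In each group the replicate numbered 3 was the low library, and the groups overlapped throughout their range, with a log2 fold change of 0.10 (SE 0.24, 95% interval -0.45 to 0.64, edgeR). That interval spans 0.734 to 1.56 times the wild-type level. Ccno, which drives centriole amplification in multiciliated cells, stood at 4.38, 1.95 and 2.15 CPM in wild-type libraries, against 2.54, 2.59 and 1.43 CPM in knock-ins. Wild-type replicate 1 was high and the other 5 libraries lay between 1.43 and 2.59 CPM, and the log2 fold change was -0.34 (SE 0.34). Mcidas, a coregulator that starts the multiciliated programme and lies 3.1 kb from Ccno on chromosome 13, had only 1, 1 and 4 counts in wild-type and 3, 3 and 1 counts in knock-in libraries.

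**Figure D1:**
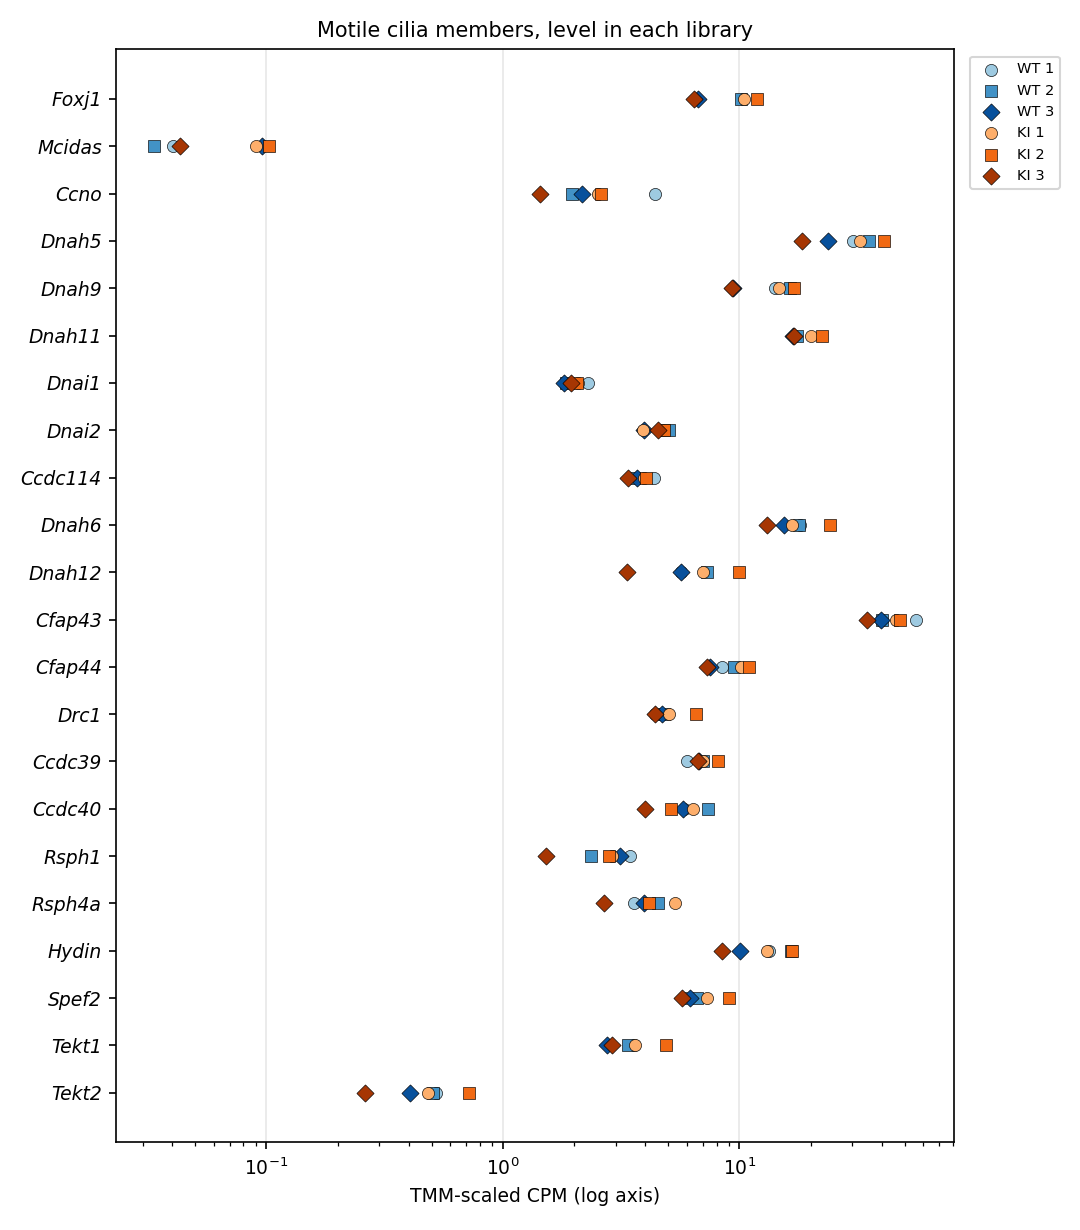
CPM on a log axis of each motile cilia gene in the 6 libraries, with a dot for each library, wild-type replicates in blues and knock-in replicates in oranges. Blue and orange dots are mixed for every gene, and the library labelled knock-in replicate 3 is the lowest dot for 16 of the 21 genes tested.

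The outer dynein arm, which supplies most of the beat's power, was represented by 6 genes, and 0 of them passed the test. Dnah5, an outer-arm heavy chain (ENSMUSG00000022262, chr15:28203752-28472052, plus strand), stood at 30.1, 35.3 and 23.6 CPM in wild-type libraries, against 32.2, 40.7 and 18.4 CPM in knock-ins. The highest and the lowest library were both knock-ins and 2.21-fold apart, and the log2 fold change was 0.04 (SE 0.26). Dnah9, a heavy chain of the distal arm, followed the same order, with 14.2, 16.4 and 9.36 CPM in wild-type libraries, against 14.7, 17.1 and 9.32 CPM in knock-ins (log2 fold change 0.05, SE 0.25). Dnah11, the heavy chain of the proximal arm, kept that order within each group but not over all 6 libraries. Its wild-type values were 17.0, 17.6 and 16.8 CPM and its knock-in values 20.0, 22.2 and 17.0 CPM. Its wild-type libraries were close together, and knock-in replicates 1 and 2 lay above all of them. Its log2 fold change of 0.21 (SE 0.12) had an unadjusted p of 0.117 in edgeR, the smallest of any motile cilia gene. An opposite-strand gene, Cdca7l, shares 4.44% of the exon length of Dnah11.

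The intermediate chains and the docking protein of the same arm varied less than Dnah5 and Dnah9. Dnai1 stood at 2.29, 1.85 and 1.81 CPM in wild-type libraries, against 2.08, 2.05 and 1.95 CPM in knock-ins. For Dnai2 the values were 4.70, 5.05 and 3.96 CPM in wild-type libraries, against 3.89, 4.81 and 4.51 CPM in knock-ins. Ccdc114, of the complex that docks the arm to the doublet, stood at 4.34, 3.57 and 3.68 CPM and at 3.95, 4.03 and 3.38 CPM. The highest library exceeded the lowest by 1.26-fold for Dnai1, 1.30-fold for Dnai2 and 1.28-fold for Ccdc114, and the log2 fold changes were 0.04, -0.05 and -0.02. Ranked by within-group spread on the log2 scale among all genes tested, Dnai1 stood at percentile 21.4, Ccdc114 at 30.4 and Dnai2 at 40.6. The heavy chain Dnah11 stood at 34.4, whereas Dnah9 stood at 95.5 and Dnah5 at 96.5. Genes of a single arm thus differed widely in how far replicates lay apart.

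Inner-arm genes repeated the contrast between knock-in libraries. Dnah6, an inner-arm heavy chain, stood at 18.1, 17.9 and 15.4 CPM in wild-type libraries, against 16.7, 24.1 and 13.1 CPM in knock-ins (log2 fold change 0.07, SE 0.20). Dnah12, a second inner-arm heavy chain, stood at 5.67, 7.27 and 5.64 CPM in wild-type libraries, against 7.03, 9.93 and 3.34 CPM in knock-ins. Its knock-in libraries differed 2.98-fold, its wild-type libraries lay within that span, and its log2 fold change was 0.14 (SE 0.32). Cfap43, which tethers an inner arm to the doublet, stood at 56.0, 40.01 and 39.8 CPM in wild-type libraries, against 45.8, 47.7 and 34.5 CPM in knock-ins. Here wild-type replicate 1 was the high library. Its partner Cfap44 stood at 8.48, 9.49 and 7.48 CPM and at 10.1, 10.99 and 7.33 CPM. The log2 fold changes of the pair were -0.08 (SE 0.17) and 0.17 (SE 0.17).

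Per kilobase of exon, Cfap43 was the most abundant motile cilia gene at 6.23 CPM per kb, ahead of Foxj1 at 3.56, Tekt1 at 2.17, Rsph1 at 1.96 and Dnah5 at 1.92 CPM per kb. The lowest tested was Tekt2 at 0.254 CPM per kb. Among all genes tested these levels put Cfap43 at percentile 69.1, Foxj1 at 54.0 and Dnah5 at 39.7. Of the 21 tested, 19 lay below the median gene, and their median percentile was 26.5.

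Among the genes whose proteins set the repeat of the axoneme and link its doublets, 0 of 3 passed the test. Drc1, of the nexin-dynein link, stood at 4.38, 4.78 and 4.73 CPM in wild-type libraries, against 5.04, 6.55 and 4.38 CPM in knock-ins (log2 fold change 0.20, SE 0.18). Knock-in replicate 2 was high and the other 5 lay close together. For Ccdc39 the values were 5.99, 6.999 and 6.74 CPM in wild-type libraries, against 7.03, 8.12 and 6.67 CPM in knock-ins. Its partner in the molecular ruler, Ccdc40, stood at 5.83, 7.37 and 5.76 CPM in wild-type libraries, against 6.37, 5.15 and 3.99 CPM in knock-ins. The fold changes of these ruler partners had opposite signs, 0.15 (SE 0.14) for Ccdc39 and -0.28 (SE 0.20) for Ccdc40 on the log2 scale, and neither passed the test. Ttc14 on the opposite strand overlaps 16.9% of the exon length of Ccdc39 and was more abundant. Since the strand setting of the counting is not given, the value of Ccdc39 is uncertain.

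Radial spoke and central pair genes had fold changes on either side of 0. Rsph1, a spoke-head protein, stood at 3.46, 2.35 and 3.13 CPM in wild-type libraries, against 2.90, 2.80 and 1.52 CPM in knock-ins, with a log2 fold change of -0.29 (SE 0.27). Rsph4a, of the same spoke head, stood at 3.58, 4.51 and 3.94 CPM and at 5.34, 4.16 and 2.69 CPM, with a log2 fold change of 0.03 (SE 0.24). For both genes the library labelled knock-in replicate 3 was the lowest of the 6. Hydin, a central pair protein, stood at 13.4, 16.5 and 10.1 CPM in wild-type libraries, against 13.1, 16.6 and 8.45 CPM in knock-ins, and matched Dnah5 and Dnah9 in having replicate 2 high and the last library low in each group, with a log2 fold change of -0.06 (SE 0.24). Spef2, also of the central pair, stood at 5.87, 6.63 and 6.19 CPM and at 7.30, 9.04 and 5.72 CPM, with a log2 fold change of 0.24 (SE 0.18). The tektins are filament proteins inside the doublets. Tekt1 stood at 3.58, 3.37 and 2.75 CPM in wild-type libraries, against 3.62, 4.91 and 2.90 CPM in knock-ins, and had the highest log2 fold change of the motile cilia genes, 0.25 (SE 0.22). Tekt2 was the scarcest tested, at 0.522, 0.505 and 0.406 CPM and at 0.483, 0.717 and 0.260 CPM (log2 fold change 0.07, SE 0.38).

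**Figure D2:**
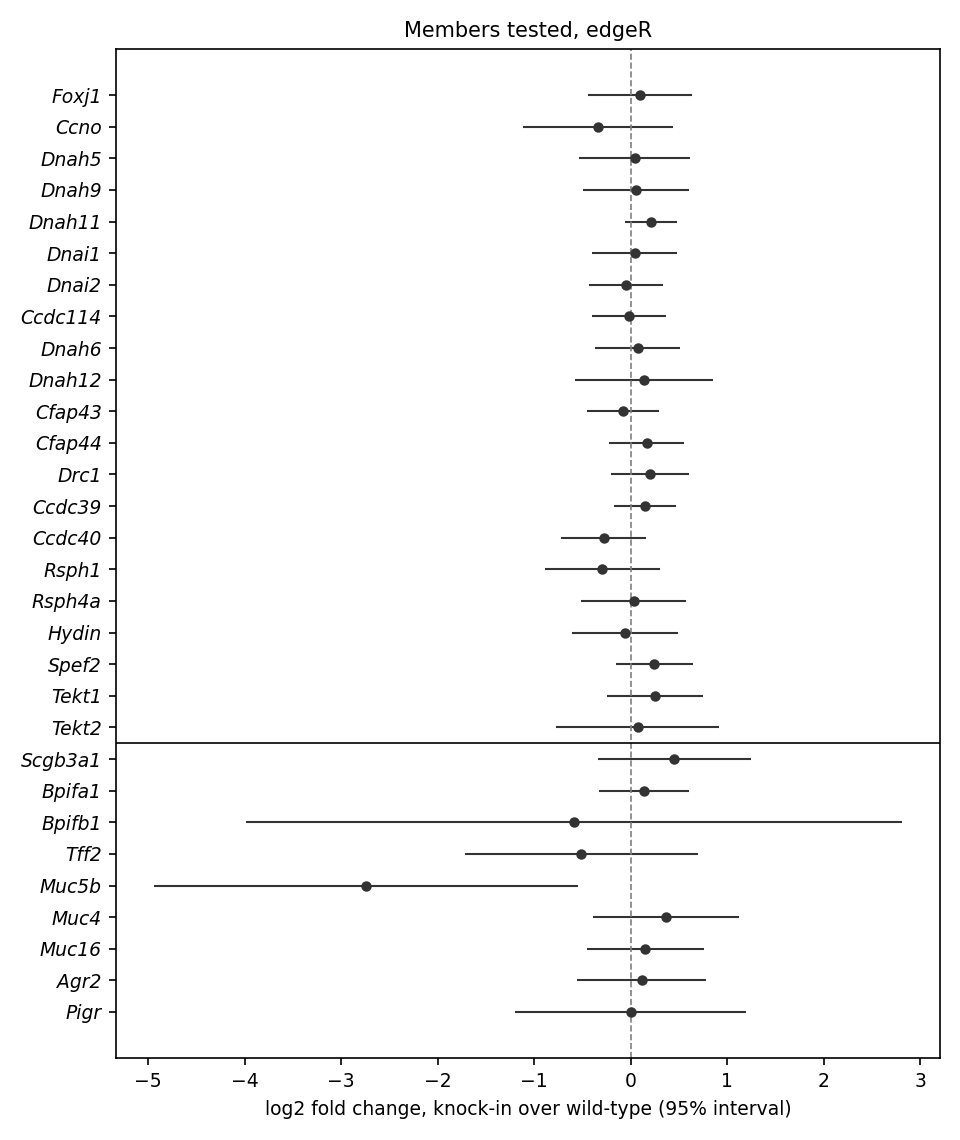
Log2 fold change of knock-in over wild-type for each gene tested, with 95% intervals from edgeR. A horizontal line separates the motile cilia genes, above, from the secretory genes, below. Every interval but that of Muc5b includes 0, and the intervals of Bpifb1 and Muc5b are the widest.

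Over the 21 motile cilia genes tested, the median log2 fold change was 0.05, against 0.001 over all genes tested. A total of 14 had a positive and 7 a negative value, from -0.34 for Ccno to 0.25 for Tekt1, and 20 of the 21 lay within 0.3 of 0. Summed over the 22 genes, the level was 207 ± 23.5 CPM in wild-type and 212 ± 50.2 CPM in knock-in libraries (SD, n = 3 each). The median moved with single libraries: it was 0.25 without the library labelled knock-in replicate 3, -0.12 when knock-in replicate 2 was left out and -0.05 when wild-type replicate 3 was.

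The larger differences lay within the knock-in group. Summed motile cilia levels were 222.2, 219.6 and 180.2 CPM in wild-type libraries, against 220.9, 256.3 and 157.2 CPM in knock-ins, so that the highest and the lowest sum were both knock-ins. Among the 3 knock-ins, replicate 2 was the highest for 17 of the 21 genes (81.0%, against 27.2% of all genes tested). The exceptions were Dnai1, Ccdc40, Rsph1 and Rsph4a. The library labelled knock-in replicate 3 was the lowest of the knock-ins for 20 of the 21 (95.2%, against 37.8% of all genes tested), with Dnai2 as the exception. Over all 6 libraries it was the lowest for 16 of the 21 (76.2%, against 22.3%), the exceptions being Dnah11, Dnai1, Dnai2, Ccdc39 and Tekt1. Among the wild-type libraries, replicate 3 was the lowest for 14 of the 21 (66.7%, against 31.4%). These genes were measured in the same libraries and are not independent of each other, so the counts describe the 6 libraries and carry no test.

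Without the library labelled knock-in replicate 3, 17 of the 21 motile cilia genes had a positive log2 fold change, from -0.13 for Ccdc40 to 0.45 for Dnah12, and 0 were called, where 0.0142% of 21131 genes were. At an unadjusted p under 0.05 there were 2, Dnah11 at 0.30 (SE 0.12) and Spef2 at 0.39 (SE 0.16), against 3.88% of all genes. The remaining 2 knock-ins lay above all 3 wild-type libraries for 7 of the 21 (33.3%, against 9.74% of all genes): Foxj1, Dnah11, Cfap44, Drc1, Ccdc39, Spef2 and Tekt1. Leaving out the lowest library of a group raises that group by construction, and leaving out knock-in replicate 2 in its place gave a negative median, as above. Of the 4 genes with a negative value, Rsph1, Ccdc40 and Ccno came nearer to 0, at -0.07, -0.13 and -0.12. Dnai2 went from -0.05 to -0.07. Foxj1 stood at 0.31 (SE 0.20) and Dnah5 at 0.30 (SE 0.18). Of the 9 secretory genes 0 were called, and 2 had an unadjusted p under 0.05, Muc16 at 0.42 (SE 0.18) and Muc5b at -2.61 (SE 1.15).

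**Figure D3:**
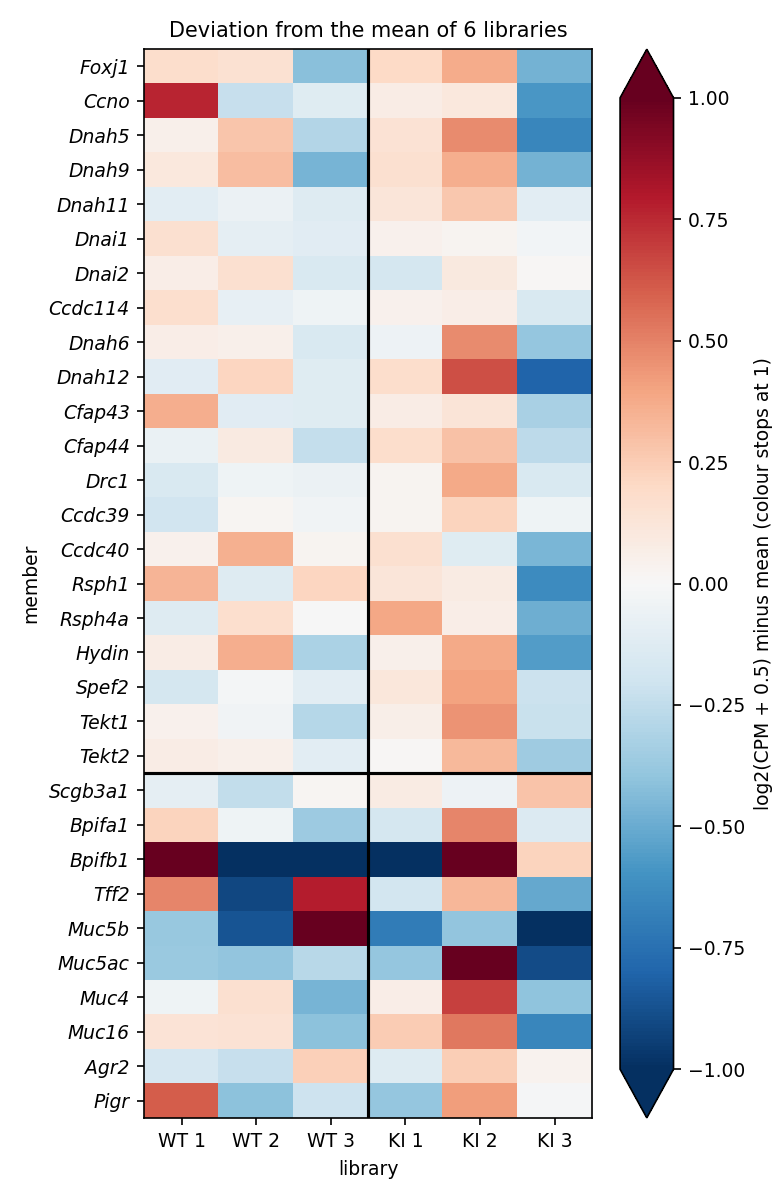
Heat map of log2(CPM + 0.5) of each gene in each library, less the gene's mean over the 6 libraries, with the colour scale stopping at 1 in either direction. The motile cilia rows are mostly above their mean in knock-in replicate 2 and below it in the library labelled knock-in replicate 3, while Bpifb1, Muc5b and Muc5ac each stand out in single libraries.

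On the log2(CPM + 0.5) scale, less each gene's mean over the 6 libraries, the median motile cilia gene lay 0.07, 0.05 and -0.12 from its mean in wild-type and 0.07, 0.29 and -0.36 in knock-in libraries. The same median over all genes tested lay between -0.003 and 0.009 in every library. The library labelled knock-in replicate 3 was also the one with wild-type-level Neo counts, it had high Xist, and it held the highest sum of salivary and lacrimal gland markers. Those markers summed to 20.6, 24.5 and 22.7 CPM in wild-type libraries, against 38.3, 89.9 and 227.9 CPM in knock-ins. Of the 12, 6 were tested and 1 was called, against 0.0338% of all genes tested. For 5 of the 6 the knock-in libraries all lay above the wild-type ones, against 4.71% of all genes tested. Car6, a secreted carbonic anhydrase of saliva, was the only list gene called in edgeR, at 0.0804, 0.0336 and 0 CPM in wild-type libraries, against 3.23, 2.52 and 7.71 CPM in knock-ins (log2 fold change 6.97, SE 0.74, adjusted p = 0.0205). Without the library labelled knock-in replicate 3 it was still called, at 6.35 (SE 0.52, adjusted p = 0.004, edgeR). Pip and Bpifa2, both secreted by salivary glands, had adjusted p-values of 0.0647 and 0.102 in edgeR. Amy1, an amylase whose reads may be shared with near-identical copies, stood at 12.1, 16.45 and 12.4 CPM and at 18.7, 29.6 and 75.6 CPM. Car6, Pip and Bpifa2 were at or near 0 in the wild-type libraries. Muc19, another of the 12, was high in wild-type replicate 3, as given below with the mucins. Wild-type replicate 3, also low for the motile cilia genes, had 22.7 CPM of salivary markers. Xist was high in the library labelled knock-in replicate 3, low for the motile cilia genes, and in wild-type replicate 2, not low for them. The part of salivary tissue, sex or the Neo state in the motile cilia values was not tested.

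Epithelial markers shared part of this order of libraries, and markers of brain linings shared it only among the wild-type libraries. The 13 epithelial markers summed to 236.0, 274.3 and 229.2 CPM in wild-type libraries, against 254.7, 270.6 and 244.4 CPM in knock-ins, and 0 of the 12 tested were called. Among the knock-ins, the library labelled knock-in replicate 3 was the lowest for 7 of those 12 (58.3%, against 37.8% of all genes tested). Replicate 2 was the highest knock-in for 7 (58.3%, against 27.2%). The range of the epithelial sum was narrower than that of the motile cilia genes. Epcam and Cdh1, adhesion proteins of epithelial cells, stood at 48.4 to 63.7 CPM and 91.8 to 111 CPM over the 6 libraries. Krt18, Krt15 and Ehf had the smallest p-values of that list, with log2 fold changes of 0.31, -1.22 and 0.24 (unadjusted p 0.0651, 0.106 and 0.126, edgeR). The 10 choroid plexus and ependymal markers, from brain linings that also bear motile cilia, summed to 55.4, 61.5 and 52.4 CPM and to 55.1, 64.0 and 81.1 CPM. The library with their highest sum was thus the one with the lowest sum of motile cilia genes. Of the 9 tested, the library labelled knock-in replicate 3 was the highest knock-in for 6 and the lowest for 2. Among the wild-type libraries, replicate 3 was the lowest for 6 of the 9 (66.7%, against 31.4% of all genes tested). Ttr, the transthyretin of choroid plexus, stood at 7.64, 11.1 and 9.22 CPM in wild-type libraries, against 9.42, 16.2 and 24.7 CPM in knock-ins, with an unadjusted p of 0.0192 and an adjusted p of 0.966 in edgeR. Rarres2 and Otx2 followed it in that list, with log2 fold changes of 0.31 and 0.12.

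**Figure D4:**
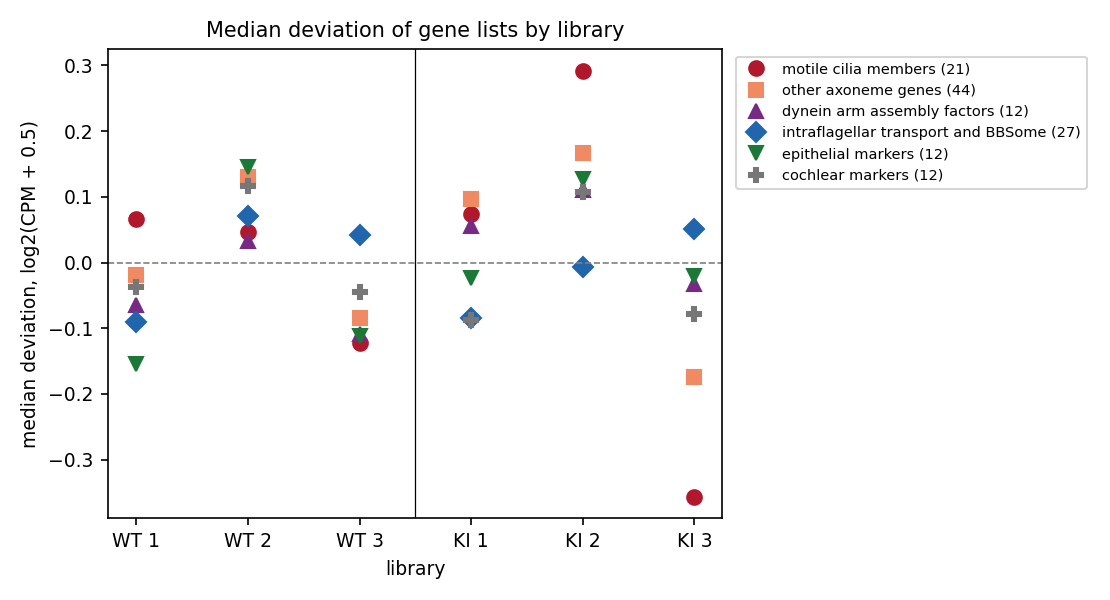
Median over the genes of each list of log2(CPM + 0.5) less the gene's mean over the 6 libraries, with a dot for each library. The motile cilia genes reach 0.29 in knock-in replicate 2 and -0.36 in the library labelled knock-in replicate 3, while the list of transport proteins shared with immotile cilia stays between -0.09 and 0.07.

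Other axoneme genes shared part of this pattern. Of 45 such genes, 44 were tested, 0 were called, and their median log2 fold change was 0.01, with 22 values on each side of 0. Among the knock-ins, the library labelled knock-in replicate 3 was the lowest for 29 of the 44 (65.9%, against 37.8% of all genes tested). Replicate 2 was the highest knock-in for 27 (61.4%, against 27.2%). Cfap46, of the central pair, had a log2 fold change of 0.49 (SE 0.21, unadjusted p 0.0455, edgeR). Gas8, of the nexin-dynein link, stood at 7.96, 8.28 and 7.48 CPM in wild-type libraries, against 6.94, 5.49 and 6.50 CPM in knock-ins (log2 fold change -0.32, SE 0.14, unadjusted p 0.0485, edgeR). It was the only gene of this list whose groups did not overlap, against 8.72% of all genes tested. Mns1, a filament protein of the axoneme, had a log2 fold change of -0.58 (SE 0.28). None of these passed adjustment, at adjusted p = 0.966 each.

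Intraflagellar transport and BBSome genes, which serve immotile primary cilia as well, did not share it. All 27 were tested and 0 were called, with a median log2 fold change of -0.03. Here the library labelled knock-in replicate 3 was the highest of the knock-ins for 16 of the 27 (59.3%, against 36.7% of all genes tested). It was the lowest for 2 (7.41%, against 37.8%). Bbs7, Ift52 and Kif3b, with the smallest p-values of this list, had log2 fold changes of -0.28, -0.20 and -0.13 (SE 0.16, 0.12 and 0.10), all with an adjusted p of 0.966 in edgeR. The groups did not overlap for 1 of the 27, against 8.72% of all genes tested. This was Kif3b, a kinesin-2 motor subunit, at 43.9 to 46.1 CPM in wild-type and 37.8 to 43.2 CPM in knock-in libraries. The difference between these lists was not tested.

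Regulators of the multiciliated programme other than the members, 12 genes of which 9 were tested, had 0 called and a median log2 fold change of -0.11. Of the knock-ins, the library labelled knock-in replicate 3 was the lowest for 8 of these 9 (88.9%, against 37.8% of all genes tested). Among the wild-type libraries, replicate 2 was the lowest for 7 of the 9 (77.8%, against 34.7%), unlike for the motile cilia genes. E2f4, which works with Mcidas in multiciliated cells and has wider roles in the cell cycle, stood at 46.2, 41.1 and 45.4 CPM in wild-type libraries, against 42.3, 36.2 and 32.9 CPM in knock-ins (unadjusted p 0.0563, edgeR). Rfx2 and E2f5 had log2 fold changes of -0.19 and 0.09. Among 12 tested of 14 assembly factors, which preassemble dynein arms in the cytoplasm, 0 were called and the median was 0.14. The groups did not overlap for Cfap298 (log2 fold change -0.23) or Spag1 (0.19), which differed in sign, against 8.72% of all genes tested. Dnaaf3 had a value of 0.33. For the 12 assembly factors tested, the library labelled knock-in replicate 3 was the lowest knock-in for 5 (41.7%, against 37.8% of all genes tested). It was the highest for 4 (33.3%, against 36.7%).

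The secretory genes were dominated by Bpifa1. Bpifa1, the secreted BPI-fold protein also known as SPLUNC1 (ENSMUSG00000027483, chr2:154142880-154149219, plus strand), stood at 1187, 986 and 791 CPM in wild-type libraries, against 903, 1430 and 927 CPM in knock-ins. It ranked 36 in mean CPM among the 20733 genes tested, stood at percentile 99.8 by CPM per kb, and made up 85.9% to 96.3% of the summed CPM of the 11 secretory genes. Its log2 fold change was 0.14 (SE 0.21, 95% interval -0.33 to 0.61, edgeR), and the groups overlapped. Without knock-in replicate 2 its fold change was the lowest of those with 1 library left out, at -0.11.

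Its relative Bpifb1 varied widely. Bpifb1, a longer BPI-fold protein (ENSMUSG00000027485, chr2:154190818-154220369, plus strand), starts 41.6 kb beyond the end of Bpifa1. It stood at 156, 2.76 and 4.25 CPM in wild-type libraries, against 0.513, 93.7 and 13.7 CPM in knock-ins. A single library of each group was high, replicate 1 of the wild type and replicate 2 of the knock-ins, and the extremes were 304.7-fold apart. The log2 fold change of -0.59 had an SE of 1.52, and moved to 3.34 when wild-type replicate 1 was left out and to -2.97 when knock-in replicate 2 was. By within-group spread on the log2 scale, Bpifa1 stood at percentile 90.3 of all genes tested and Bpifb1 above it.

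The secretoglobins that define airway club cells were at the edge of detection. Scgb1a1, the club cell secretory protein, had 0, 0 and 3 counts in wild-type and 0, 1 and 3 counts in knock-in libraries. Scgb3a1, a secretoglobin of airway secretory cells, stood at 0.322, 0.235 and 0.382 CPM in wild-type libraries, against 0.423, 0.341 and 0.564 CPM in knock-ins, with a log2 fold change of 0.45 (SE 0.35). The trefoil factor Tff1 had 0 counts in every library, and Tff3 and the goblet cell gene Clca1 had 1 count each in all 6 libraries together. Scgb1a1, Tff1, Tff3 and Clca1 were thus near 0 while Bpifa1 was abundant and Muc5b was detected in every library. Tff2, a trefoil peptide released with mucus, stood at 1.89, 0.404 and 2.44 CPM in wild-type libraries, against 0.996, 1.64 and 0.694 CPM in knock-ins. Wild-type replicates 1 and 3 were above wild-type replicate 2, which was the lowest of all, and the log2 fold change was -0.51 (SE 0.54). It was -0.004 without wild-type replicate 3 and -0.96 without wild-type replicate 2.

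**Figure D5:**
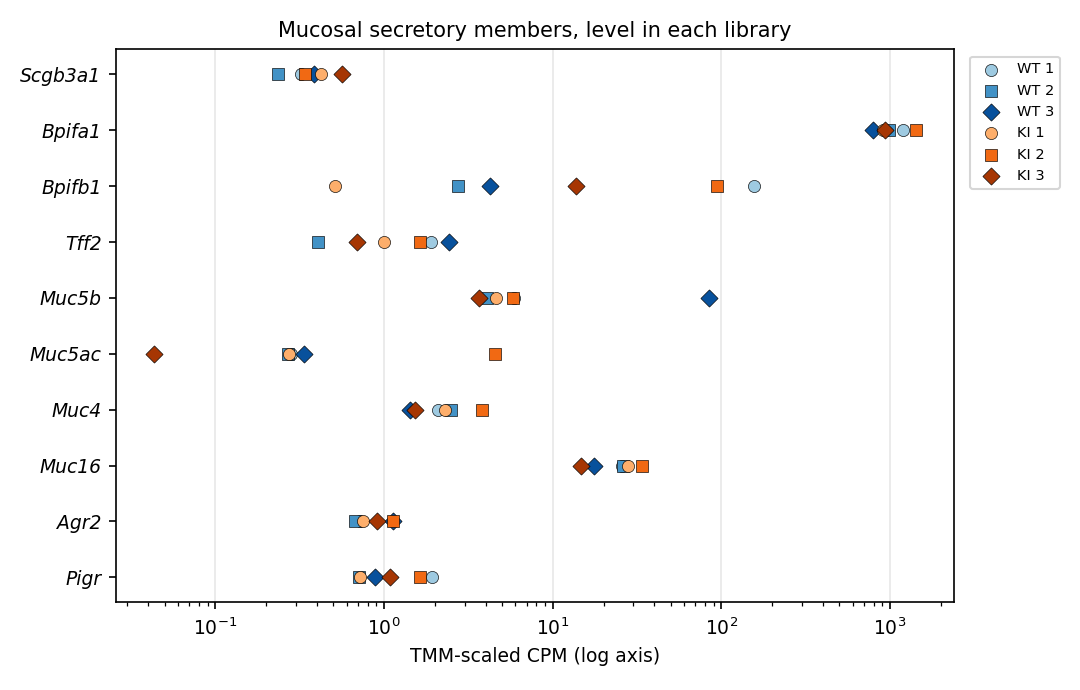
CPM on a log axis of each secretory gene in the 6 libraries, with a dot for each library, wild-type replicates in blues and knock-in replicates in oranges. Bpifa1 lies between 791 and 1430 CPM, Bpifb1 ranges from 0.513 to 156 CPM, and Muc5b and Muc5ac each have a single library far above the rest.

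The gel-forming mucins each had a single high library, and not the same one. Muc5b (ENSMUSG00000066108, chr7:141839070-141873084, plus strand) stood at 5.87, 4.07 and 83.8 CPM in wild-type libraries, against 4.62, 5.80 and 3.64 CPM in knock-ins. Wild-type replicate 3, with 3508 counts, was 14.3-fold above the next library, and the other 5 lay between 3.64 and 5.87 CPM. The log2 fold change of -2.74 (SE 0.98, unadjusted p 0.0195, adjusted p = 0.966, edgeR) became -0.08 without that library. Muc5ac, the mucin of airway goblet cells (ENSMUSG00000037974, chr7:141788972-141819231, plus strand), ends 19.8 kb before Muc5b begins. It stood at 0.281, 0.269 and 0.334 CPM in wild-type libraries, against 0.272, 4.54 and 0.0433 CPM in knock-ins. The value of knock-in replicate 2, from 133 counts where the others had 1 to 14, was 13.6-fold above the next library, and the gene was not tested. Muc19, a gel-forming mucin of the salivary and lacrimal gland list, was looked up after these values were seen. It had 182 counts in wild-type replicate 3 and 2 to 10 in the other 5 libraries, with the same high library as Muc5b.

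The membrane-bound mucins followed the motile cilia genes in the order of libraries. Muc16 stood at 25.9, 25.9 and 17.5 CPM in wild-type libraries, against 28.1, 33.9 and 14.7 CPM in knock-ins, with a log2 fold change of 0.15 (SE 0.27). Muc4 stood at 2.09, 2.49 and 1.43 CPM in wild-type libraries, against 2.29, 3.79 and 1.52 CPM in knock-ins, with a log2 fold change of 0.36 (SE 0.34). Both were highest in knock-in replicate 2 and low in the libraries numbered 3. Muc20 on the opposite strand shares 5.33% of the exon length of Muc4. Agr2, which folds mucins in the endoplasmic reticulum, stood at 0.724, 0.673 and 1.12 CPM and at 0.755, 1.13 and 0.910 CPM. Pigr, the receptor that carries IgA across epithelium, stood at 1.93, 0.707 and 0.884 CPM in wild-type libraries, against 0.724, 1.64 and 1.08 CPM in knock-ins. Its 2 highest libraries were those of Bpifb1. Their log2 fold changes were 0.12 (SE 0.30) and 0.00 (SE 0.53).

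Over the 9 secretory genes tested, the median log2 fold change was 0.12, against 0.001 over all genes, and knock-in replicate 2 was the highest of the knock-ins for 8 of the 9 (88.9%, against 27.2% of all genes tested), with Scgb3a1 as the exception. Without Bpifa1 the secretory genes summed to 195.4, 37.5 and 112.2 CPM in wild-type and to 38.7, 146.5 and 37.1 CPM in knock-in libraries, which reflects the single high libraries of Bpifb1 and Muc5b. The median ran from -0.11 without knock-in replicate 2 to 0.29 without wild-type replicate 1.

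Other mucosal secretory genes also gave no call. Of 23 such genes, 14 were tested and 0 called, with a median log2 fold change of -0.09, and they summed to 2074 ± 284 CPM in wild-type and 1845 ± 31.8 CPM in knock-in libraries (SD, n = 3 each). Ltf, the lactoferrin of neutrophil granules and glandular secretions, stood at 1618, 1214 and 1477 CPM and at 1253, 1308 and 1357 CPM. Lcn2, an iron-scavenging protein of neutrophils and mucosa, stood at 567, 401 and 496 CPM in wild-type libraries, against 422, 384 and 368 CPM in knock-ins (unadjusted p 0.0498, adjusted p = 0.966, edgeR). Gp2 had a log2 fold change of -1.02 (SE 0.64) and Fcgbp of 0.29 (SE 0.23).

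Plasma cells make the IgA that Pigr transports, and their 6 markers summed to 614.4, 364.2 and 278.9 CPM in wild-type libraries, against 231.0, 295.8 and 348.1 CPM in knock-ins. The 5 tested had log2 fold changes below 0 (median -0.40), and 0 were called. Igha, the IgA heavy chain, stood at 422, 233 and 162 CPM and at 137, 170 and 224 CPM, Jchain had a log2 fold change of -0.40 and Prdm1 of -0.34. The high value of wild-type replicate 1 was shared with Bpifb1 and Pigr, but knock-in replicate 2, the other high library of those genes, was not high here.

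Inner ear markers are given for comparison. The 6 vestibular markers summed to 60.3, 72.5 and 63.8 CPM in wild-type libraries, against 78.8, 85.1 and 88.3 CPM in knock-ins, and 0 were called. Nox3, the oxidase needed for otoconia, stood at 48.9, 56.0 and 48.4 CPM and at 62.1, 71.6 and 70.5 CPM (log2 fold change 0.41, SE 0.10, unadjusted p 0.00282, adjusted p = 0.966, edgeR). Otop1 and Oc90 had log2 fold changes of 0.57 and 0.48, and Zpld1 of -0.04. Of 12 cochlear markers, 0 were called, and the groups did not overlap for 3, against 8.72% of all genes tested. These were Otos, Kcnj10 and Otoa, with log2 fold changes of -0.51, -0.43 and 0.26. Gjb2, a gap junction protein of supporting cells, stood at 279 to 333 CPM over the 6 libraries. The cochlear markers shared part of the order of libraries seen for the motile cilia genes. Knock-in replicate 2 was the highest knock-in for 8 of the 12 (66.7%, against 27.2% of all genes tested). Wild-type replicate 3 was the lowest wild type for 7 (58.3%, against 31.4%). The library labelled knock-in replicate 3 was the lowest knock-in for 5 (41.7%, against 37.8%). The part of these tissues in the motile cilia and secretory values was not tested.

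The authors' deposited table of their DESeq2 comparison lists 31 of the 33 genes, gives 28 of them an adjusted p, and calls 0, with a lowest adjusted p of 0.9997. For the 30 genes in both, the rounded fold changes of the authors' deposited table and of edgeR had the same sign for 29. They differed by at most 0.03 on the log2 scale. The remaining gene, Pigr, stood at -0.018 in the authors' deposited table, and its edgeR value rounded to 0, so its sign was not compared. In the authors' deposited table Muc5b has a log2 fold change of -2.74 (SE 1.23) and no p-value.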

How the data were processed

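RNA-seq libraries of cochleae from 3 wild-type and 3 knock-in mice were analysed from deposited tables. The submitters' processing notes name STAR 2.5.2, GRCm38 and DESeq2. How reads were counted per gene, and with what strand setting, is not given in the sources used here. Raw read counts per gene were deposited by the authors. Their DESeq2 comparison, also deposited, holds per the file headers a mean signal per gene (size-factor scaled counts), log2 fold changes and their errors, the Wald statistic as a score, and p-values. Transformed log values, deposited as well, were not used.

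From the counts, genes were filtered by filterByExpr and tested with edgeR 4.0.16 in R 4.3.3 (TMM, quasi-likelihood F test, two-sided, with no term but group). P-values were adjusted by Benjamini-Hochberg over 20733 genes. CPM use TMM-scaled library sizes, and CPM per kb use merged exon length. Symbols, positions and exon lengths come from GENCODE M21 on GRCm38, matched for 48349 identifiers. The 24 spike-in and transgene rows, 0.00151% to 0.0045% of the counts of a library, stayed out. SE were derived as log2 fold change over the root of F. The test was checked on simulated data. Promoter windows come from RefSeq.

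The labels give each library its own mouse. Replicate numbers follow accession order and pair nothing. The genes and lists were chosen with earlier results of these data known. Values in every library are given for members with at least 60 counts over the 6 libraries, and counts for the rest. From each other list the 3 genes with the smallest p, any called gene and, for marker lists, the 2 most abundant are named. Gene names outside that rule were chosen after their values were seen. Alternatives were RLE scaling, no filter, a filter of 1 CPM in 3 libraries, DESeq2 1.42.0, limma-voom (limma 3.58.1), leaving out each library and, chosen after seeing the data, the bias-adjusted quasi-likelihood fit.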

Additional observations from a re-analysis of the deposited data

How the results depend on the processing

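No gene of the 33 was called under RLE scaling, no filter, the stricter filter, DESeq2, limma-voom, the bias-adjusted fit (chosen after seeing the data) or with any 1 library left out. Muc5b had no p-value in DESeq2. Over all genes the count of calls was 7 (2 higher, 5 lower), 76 (46 higher, 30 lower) with no filter, 28 (12 higher, 16 lower) with DESeq2, and 3 to 21 with 1 library left out, 21 without knock-in replicate 1. The motile cilia median log2 fold change was 0.04 to 0.05 with other tools or filters and -0.12 to 0.25 with 1 library left out. For the secretory genes these ranges were 0.007 to 0.13 and -0.11 to 0.29. Of 30 genes refitted, 19 changed sign in at least 1 of 9 settings and 11 did not. With 1 library left out the log2 fold changes ran from -0.093 to 0.31 for Foxj1, -0.54 to 0.10 for Ccno, -0.22 to 0.30 for Dnah5, -0.16 to 0.26 for Dnah9, -0.029 to 0.15 for Dnai1, -0.15 to 0.036 for Dnai2, -0.074 to 0.066 for Ccdc114, -0.20 to 0.25 for Dnah6, -0.24 to 0.45 for Dnah12, -0.17 to 0.10 for Cfap43, -0.22 to 0.24 for Rsph4a, -0.29 to 0.16 for Hydin, -0.30 to 0.33 for Tekt2, -0.11 to 0.29 for Bpifa1, -2.97 to 3.34 for Bpifb1, -0.045 to 0.61 for Muc4, -0.10 to 0.42 for Muc16, -0.051 to 0.41 for Agr2 and -0.36 to 0.51 for Pigr. With limma-voom Tekt2 was also at -0.008 and Pigr at 0.068. These fits use fewer samples, and none of the values passed the threshold. With 3 mice a group and low counts for Tekt2, Scgb3a1 and Agr2, small differences were not detectable at this depth. No paired analysis was possible because the labels give no replicate numbers shared by the groups.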
